A study of Mus musculus with 6 samples.

Results

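Calcium channels, calcium stores and calcium pumps were examined in proprioceptive sensory neurons of the mouse that supply 2 opposing muscles of the lower leg, the tibialis anterior (TA), which flexes the ankle, and the gastrocnemius (GS), which extends it. The 34 genes were selected by family and not by a threshold on their values, though earlier results of these data were known. They are every voltage-gated calcium channel pore subunit, with the alpha2delta and beta subunits. The others are the ryanodine and IP3 receptors, the SERCA and PMCA calcium pumps and the sodium-calcium exchangers. All 34 were found by symbol, once each, among 36814 gene entries of the deposited table. The neurons came from a Pv::YFP reporter line, shared by both groups, in which the TA or the GS was injected with the tracer ctb-555 at postnatal day 0. At postnatal day 1 the labelled cells were hand-picked into pools of 25 to 30 neurons, and each muscle gave 3 such pools. The sources used here do not state whether separate animals gave separate pools, so the p-values measure only the spread between these pools. Neither an untreated nor an uninjected group was among the samples.

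A proprioceptor carries spikes from the muscle through a cell body in the dorsal root ganglion to terminals in the spinal cord. Calcium enters through voltage-gated channels, whose pore subunit sets the type of current, whose alpha2delta subunit helps place channels at terminals and whose beta subunit helps bring them to the membrane. Ryanodine and IP3 receptors release calcium from the endoplasmic reticulum, SERCA pumps refill that store, and PMCA pumps and sodium-calcium exchangers move calcium out of the cell. PMCA pumps bind calcium tightly and move it slowly, while exchangers bind it loosely and move it fast.

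Levels are given as RPKM, the deposited read number scaled to gene length and library size, which can be compared between genes. Where 3 values of a muscle are listed, they stand for replicates 1, 2 and 3 in that order. The 12 markers of proprioceptors and large sensory neurons summed to between 6853 and 9871 RPKM per library, and all 12 were above 0 in all 6 libraries. Most of that sum was Nefl and Nefm, and 4 of the 12 did not overlap between the muscles: Pvalb and Whrn were higher in the TA pools, and Etv1 and Spp1 in the GS pools. Pvalb was at 69.0, 93.5 and 47.8 RPKM in the TA pools and at 4.26, 10.4 and 31.3 RPKM in the GS pools, and Spp1 was at 2.78 to 6.97 RPKM and 38.5 to 72.0 RPKM. Reads assigned to genes numbered between 7038296 and 21125960 per library, and the members held between 21861 and 75538 of them. Libraries stood apart in 2 ways that touch the members. GS replicate 2 listed 14 of the 34 members at 0, against 2 to 6 in the other libraries. It listed 5.87% of all genes tested at 0, against 2.94% in GS replicate 1 and 0.545% to 1.15% elsewhere. TA replicate 3 held skeletal muscle markers, which summed to 342 RPKM against 0.421 to 5.34 RPKM in the other libraries. The 38 mitochondrial gene entries stood at 0 in all libraries, and a 0 is therefore described only as listed at 0. In pooled neurons, fewer cells of a kind and less RNA per cell cannot be told apart.

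The question of the comparison was whether these genes differ between neurons of the TA and of the GS. By their means in each muscle, the same genes led: Atp2b2 and Atp2a2 among pumps, Cacna1b among pores, Cacna2d1 among alpha2delta subunits and Ryr2 among release channels. In GS replicate 1, however, Cacna2d2 exceeded Cacna2d1. Limma, fitted to log2(RPKM + 1) of all 10828 genes with a mean of at least 1 RPKM, called none of the 20 members that passed this filter at an adjusted p under 0.05, where 0.305% of all genes tested were called (0.175% towards TA, 0.129% towards GS). At an unadjusted p under 0.05 there were 3 members, all higher in TA (Cacna2d3, Slc8a1 and Cacna1c), against 10.4% of all genes in both directions with 8.30% towards TA and 2.12% towards GS. With libraries centred on their medians these shares were 4.69% and 3.80%, and the members stayed at 3. The 3 TA values all lay above the 3 GS values in 5 of the 20 members and the reverse in 0, where 13.1% of all genes tested did so towards TA and 3.48% towards GS. The median log2 difference, TA minus GS, was 0.21 over those 20 members and 0.24 over all genes tested, and the latter moved to 0.03 with libraries centred on their medians. The other 14 members lay below the filter, Ryr3 with a value below 0 among them.

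**Figure D1:**
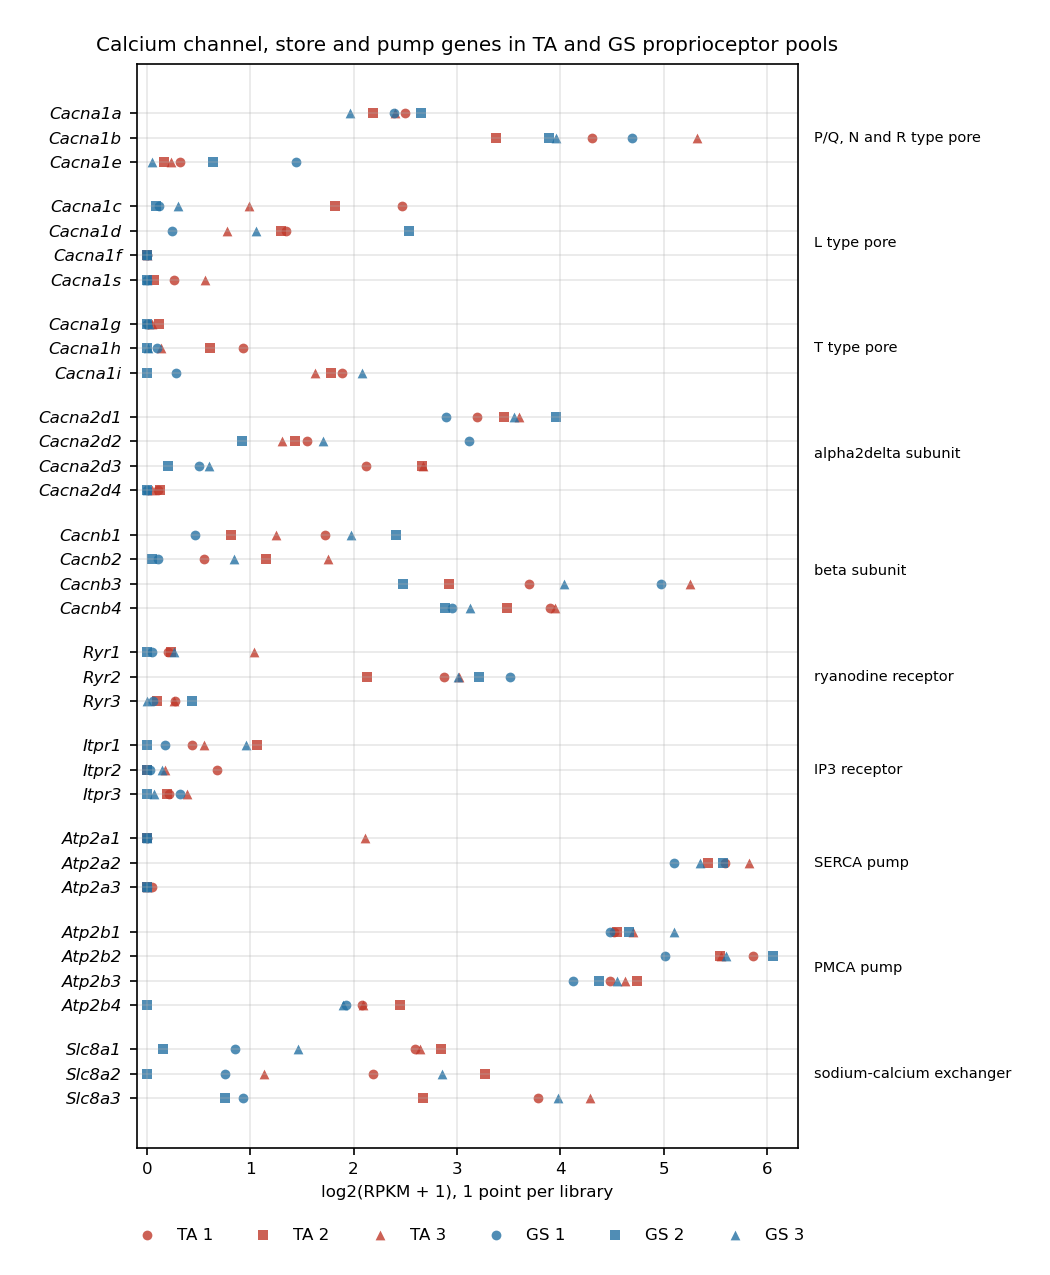
Level of each of the 34 genes in each library, as log2(RPKM + 1) on the horizontal axis, with genes grouped by class; red points are the 3 TA pools, blue points the 3 GS pools, and symbols mark the replicate number. Atp2b2 and Atp2a2 lie furthest right in both muscles, and GS replicate 2 (blue squares) sits at 0 in 14 genes. Red and blue points separate in Cacna2d3, Slc8a1, Cacna1c, Cacnb4 and Atp2b4 among the members tested. They also do so in Cacna1h, Cacna1s and Cacna2d4, which lie below the filter.

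**Figure D2:**
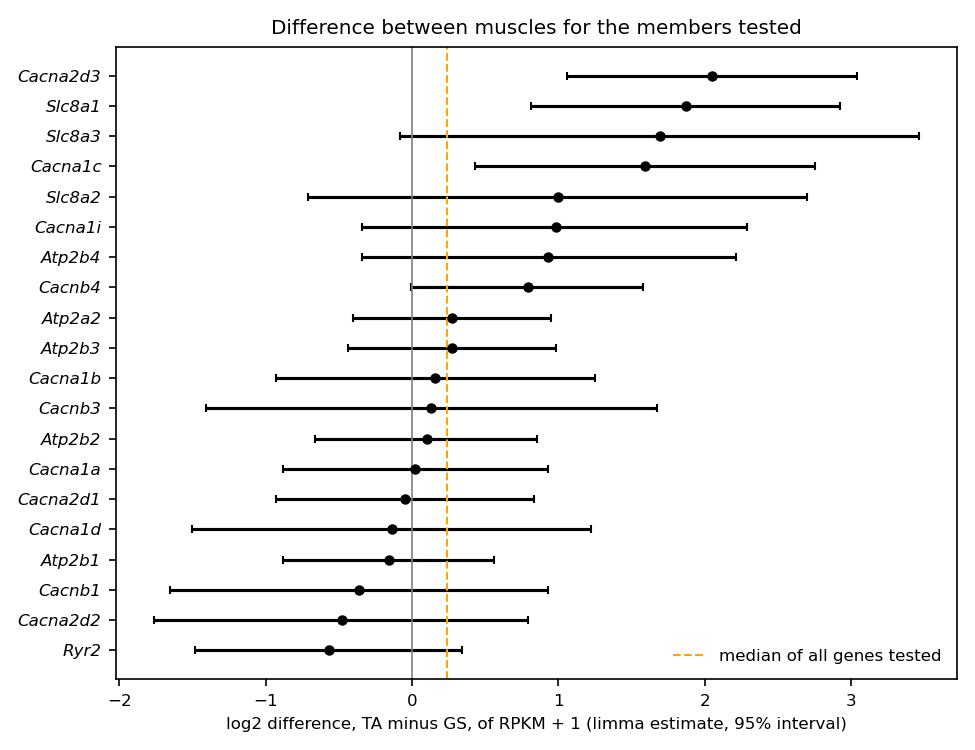
Log2 difference, TA minus GS, of RPKM + 1 for the 20 members tested (points, limma estimates; bars, 95% intervals); the dashed line is the median of all 10828 genes, 0.24. The intervals of Cacna2d3, Slc8a1 and Cacna1c lie above 0 before adjustment, and those of the other 17 include 0.

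Among the pores that drive transmitter release, Cacna1b, the N type pore, had the highest mean level of any pore subunit. It was at 18.8, 9.40 and 38.9 RPKM in the TA pools and at 24.8, 13.8 and 14.5 RPKM in the GS pools. TA replicate 3 was the highest and TA replicate 2 the lowest, and the muscles overlapped. The log2 difference was 0.16 (95% interval -0.93 to 1.25, limma adjusted p of 0.934), and it changed sign without TA replicate 3 (-0.33) and with each library centred on its median (-0.05). Cacna1a, the P/Q type pore, averaged 4.15 ± 0.551 RPKM in the TA pools and 4.15 ± 1.19 RPKM in the GS pools (SD, n = 3), with an interval of -0.88 to 0.93 for the log2 difference of 0.02, which turned to -0.18 with libraries centred on their medians. Cacna1e, the R type pore, was low, at 0.12 to 0.248 RPKM in TA and at 1.72, 0.563 and 0.0373 RPKM in the GS pools. Within this class Cacna1b made up 70.2% to 89.7% of the summed RPKM in each library, and the order N type over P/Q type over R type was the same in all 6.

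Of the L type pores, Cacna1c differed most between the muscles. It was at 4.52, 2.53 and 0.984 RPKM in the TA pools and at 0.0884, 0.0632 and 0.235 RPKM in the GS pools. All TA pools lay above all GS pools, and the GS values rested on 59 reads in the 3 libraries together, against 1189 in TA. The ratio of means was 20.8, the log2 difference was 1.59 ± 0.52 (SE), and the limma unadjusted p was 0.0121 and the adjusted p 0.357. Without TA replicate 1 the gene fell below the filter. Cacna1c is also the calcium channel of smooth muscle, and smooth muscle, vascular and connective tissue markers summed to 0.717, 1.03 and 35.1 RPKM in the TA pools and 3.36, 3.20 and 6.73 RPKM in the GS pools. Of the 13 markers in this list, 9, 10 and 4 were at 0 in the TA pools and 9, 9 and 6 in the GS pools. Myh11, Cnn1 and Kdr were at 0 in all 6 libraries, while Acta2 was at 0.294, 0 and 6.28 RPKM in the TA pools and at 0 in the GS pools. The part of these markers in the Cacna1c values was not tested. Cacna1c (chromosome 6, 118542314 to 119146249, minus strand, mm9) overlaps Dcp1b on the other strand, which was at 0.651 to 1.53 RPKM in the TA pools and 0.0946 to 0.264 RPKM in the GS pools.

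Cacna1d, the L type pore that opens at less depolarized voltages, did not follow Cacna1c. It was at 1.54, 1.46 and 0.710 RPKM in the TA pools and at 0.180, 4.81 and 1.08 RPKM in the GS pools. GS held both the lowest and the highest pool, and the log2 difference was -0.14 (interval -1.5 to 1.22, limma adjusted p of 0.956), with the opposite sign without TA replicate 3 (0.04). Cacna1c made up 45.2% to 72.2% of summed L type RPKM in the TA pools and 1.30% to 33.0% in the GS pools, and Cacna1d made up 24.6% to 36.2% and 67.0% to 98.7%. These shares did not overlap between the muscles and were not tested. Cacna1f, the L type pore of photoreceptors, was listed at 0 in all 6 libraries.

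T type pores open near the resting potential. Cacna1i was the most abundant, at 2.70, 2.44 and 2.08 RPKM in the TA pools and at 0.213, 0 and 3.24 RPKM in the GS pools. GS replicate 3 was the highest of all pools and the other 2 GS pools the lowest, so the muscles overlapped (limma adjusted p of 0.611). Cacna1h was at 0.910, 0.528 and 0.0960 RPKM in the TA pools and at 0.0674, 0 and 0.00605 RPKM in the GS pools, from 235 reads in TA and 12 in GS. Its values did not overlap between the muscles but lay below the filter, and 11.5% of all genes listed above 0 did so towards TA and 2.43% towards GS. Cacna1g was at most 0.0832 RPKM in any library.

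The alpha2delta subunits held the member with the smallest p. Cacna2d3 was at 3.35, 5.33 and 5.38 RPKM in the TA pools and at 0.422, 0.151 and 0.513 RPKM in the GS pools. Every TA pool lay above every GS pool, with 1103 reads in TA and 69 in GS. The means were 4.69 ± 1.16 and 0.362 ± 0.188 RPKM (SD, n = 3), a ratio of 12.9, and the log2 difference was 2.05 ± 0.45 (SE; 95% interval 1.06 to 3.04), with a limma unadjusted p of 0.000889 and an adjusted p of 0.140. With each library centred on its median the log2 difference was 1.84. Cacna2d3 (chromosome 14, 29718133 to 30535050, minus strand, mm9) holds Lrtm1 and 2 other entries within it, all at or near 0.

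Sequence upstream of the start is shown for Cacna2d3 and the exchanger gene Slc8a1 (described further on), the members with the 2 smallest p, which have 1 listed start each. The RefSeq promoter table (GRCm38.p6) matched 26 of the 34 members. The 250 bases before the start lie at chr14:29721865-29722114 for Cacna2d3 and chr17:81738388-81738637 for Slc8a1, both on the minus strand, and capitals mark matches to the GC box GGGCGG on either strand.
Cacna2d3: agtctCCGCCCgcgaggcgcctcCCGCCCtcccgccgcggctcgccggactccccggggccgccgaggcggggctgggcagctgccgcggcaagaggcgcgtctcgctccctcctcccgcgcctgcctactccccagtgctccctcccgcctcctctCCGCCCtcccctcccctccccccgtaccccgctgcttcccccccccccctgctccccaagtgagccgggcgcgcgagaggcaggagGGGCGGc
Slc8a1: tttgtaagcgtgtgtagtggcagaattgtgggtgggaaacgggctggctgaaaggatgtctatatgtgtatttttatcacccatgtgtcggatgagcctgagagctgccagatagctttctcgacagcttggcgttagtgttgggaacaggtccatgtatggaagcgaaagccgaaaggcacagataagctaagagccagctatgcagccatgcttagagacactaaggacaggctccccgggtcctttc
The Cacna2d3 stretch is 80.0% G and C and holds 4 GC box matches, and the Slc8a1 stretch is 50.4% G and C and holds 0. GC box letters occurred in 32.7% of all 32851 windows of this length. The core letters TGTGGT of Runx factors and CCGGAA of ETS factors, the families of the proprioceptor factors Runx3 and Etv1, occurred in 0 of these stretches, and in 14.0% and 12.0% of all windows on either strand. A missing match says only that these letters are not in this window.

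Cacna2d1, the alpha2delta subunit that binds gabapentin, was the most abundant of the 4. It was at 8.14, 9.99 and 11.1 RPKM in the TA pools and at 6.43, 14.5 and 10.7 RPKM in the GS pools. The TA pools lay inside the GS range, with a log2 difference of -0.05 (interval -0.93 to 0.83) that turned to 0.19 without GS replicate 2. Cacna2d2, the other gabapentin-binding subunit, averaged 1.70 ± 0.232 RPKM in the TA pools and 3.60 ± 3.57 RPKM in the GS pools, where GS replicate 1 held 7.65 RPKM and GS replicate 2 held 0.898 RPKM. Its log2 difference was -0.48 and turned to 0.12 without GS replicate 1. Cacna2d4, known from the retina, was at 0.0790, 0.0916 and 0.0366 RPKM in the TA pools and listed at 0 in all GS pools. The class as a whole summed to 16.2 ± 2.39 RPKM in the TA pools and 14.5 ± 1.03 RPKM in the GS pools, and Cacna2d3 made up 24.8% to 31.1% of that sum in TA pools and 0.971% to 3.80% in GS pools. The sums overlapped between the muscles and the shares of Cacna2d3 did not, and neither was tested.

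Among beta subunits, Cacnb4 was at 13.9, 10.2 and 14.4 RPKM in the TA pools and at 6.76, 6.40 and 7.75 RPKM in the GS pools. The muscles did not overlap, and the spread within each was small, with means of 12.8 ± 2.27 and 6.97 ± 0.700 RPKM (SD, n = 3). The ratio was 1.84, the log2 difference 0.79 ± 0.36 (SE), the limma unadjusted p 0.0523 and the adjusted p 0.485. The entry A430018G15Rik overlaps Cacnb4 on the opposite strand and was at 20.1, 14.0 and 26.3 RPKM in the TA pools and at 7.66, 8.34 and 13.4 RPKM in the GS pools. A further entry there on the opposite strand, Gm13540, was at 8.73, 9.34 and 10.4 RPKM in the TA pools and at 3.51, 9.90 and 8.16 RPKM in the GS pools, which overlapped. The overlap is of whole gene spans, and no source used here states a strand setting for the counting. Whether these 3 entries share reads is therefore not known.

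Cacnb3, a beta subunit often found with N type pores, had the highest mean of the class and the widest spread. It was at 12.0, 6.60 and 37.1 RPKM in the TA pools and at 30.4, 4.56 and 15.4 RPKM in the GS pools. The pools of both muscles covered nearly the same range, and the log2 difference of 0.13 (interval -1.41 to 1.67) turned to -0.07 with libraries centred on their medians and -0.51 without TA replicate 3. TA replicate 3 and GS replicate 1, the highest pools for Cacnb3, were also the highest for Cacna1b. Cacnb1, the beta subunit of the skeletal muscle channel that neurons also make, averaged 1.48 ± 0.778 RPKM in the TA pools and 2.55 ± 2.0 RPKM in the GS pools, and its log2 difference of -0.36 turned to 0.04 without GS replicate 2. Cacnb2, known from the heart, was at 0.469 to 2.38 RPKM in the TA pools and 0.0330 to 0.795 RPKM in the GS pools, below the filter.

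Among ryanodine receptors, Ryr2, the form of heart and neurons, made up 85.1% to 99.2% of the summed RPKM per library. Ryr2 was at 6.36, 3.37 and 7.13 RPKM in the TA pools and at 10.4, 8.29 and 7.07 RPKM in the GS pools. The muscles overlapped by a narrow margin, with TA replicate 3 just above GS replicate 3. The log2 difference was -0.57 (interval -1.48 to 0.34, limma adjusted p of 0.663), the lowest among the 20 members tested, and its sign was the same under all 15 other settings. Ryr3 was at -0.0134 to 0.355 RPKM, under the filter, and its value below 0 was in GS replicate 3.

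IP3 receptors summed to less than ryanodine receptors in every pool. Itpr1, known as the leading IP3 receptor of neurons, was at 0.358, 1.10 and 0.465 RPKM in the TA pools and at 0.126, 0 and 0.947 RPKM in the GS pools. It did not lead in every pool. Itpr2 made up 53.7% of the summed RPKM in TA replicate 1 and Itpr3 62.4% in GS replicate 1, with Itpr1 at 32.0% in both. The 3 receptor genes together summed to 0.901 to 1.24 RPKM in TA pools and to 0.395, 0 and 1.10 RPKM in the GS pools. Ryanodine receptors summed to 3.62 to 8.38 RPKM in the TA pools and 7.27 to 10.5 RPKM in the GS pools, and the pool in which the sums lay closest was TA replicate 2, at 3.62 RPKM against 1.24 RPKM. Itpr3 was at most 0.310 RPKM. Itpr2 was at most 0.602 RPKM. Its span overlaps that of Gm15720, an entry on the same strand at 123 to 312 RPKM, and whether they share reads is not known. In TA replicate 2 and GS replicate 2, Itpr2 was listed at 0 beside 233 and 186 RPKM of Gm15720.

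The store is refilled by SERCA pumps, and Atp2a2, the form found in most tissues, made up 94.4% to 100% of their summed RPKM. It was at 47.3, 42.0 and 55.6 RPKM in the TA pools and at 33.3, 46.5 and 39.8 RPKM in the GS pools. The muscles overlapped, with a log2 difference of 0.27 (interval -0.40 to 0.95, limma adjusted p of 0.791). Atp2a3 was listed at 0 in 5 libraries and rested on 3 reads in TA replicate 1.

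Muscle forms of the calcium machinery appeared mainly in 1 pool. Atp2a1, the SERCA pump of fast skeletal muscle, was at 3.33 RPKM in TA replicate 3, from 382 reads, and listed at 0 in the other 5 libraries. Ryr1, the release channel of skeletal muscle that some neurons also express, was at 0.153, 0.173 and 1.05 RPKM in the TA pools and at 0.0351, 0 and 0.20 RPKM in the GS pools. Cacna1s, the L type pore of skeletal muscle, was at 0.481 RPKM in TA replicate 3, 0.20 RPKM in TA replicate 1 and 0.0463 RPKM in TA replicate 2, and listed at 0 in all GS pools. TA replicate 3 is the library in which all 16 skeletal muscle markers were above 0, Acta1 at 84.9 RPKM, Actc1 at 55.3 RPKM and Myh3 at 43.2 RPKM among them. In each of the other libraries, between 8 and 13 of the 16 markers were listed at 0. The part of these markers in the values of Atp2a1, Ryr1 and Cacna1s was not tested. For Cacna1s, TA replicates 1 and 2 had 20 and 4 reads, with skeletal muscle marker sums of 1.18 and 0.421 RPKM.

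**Figure D3:**
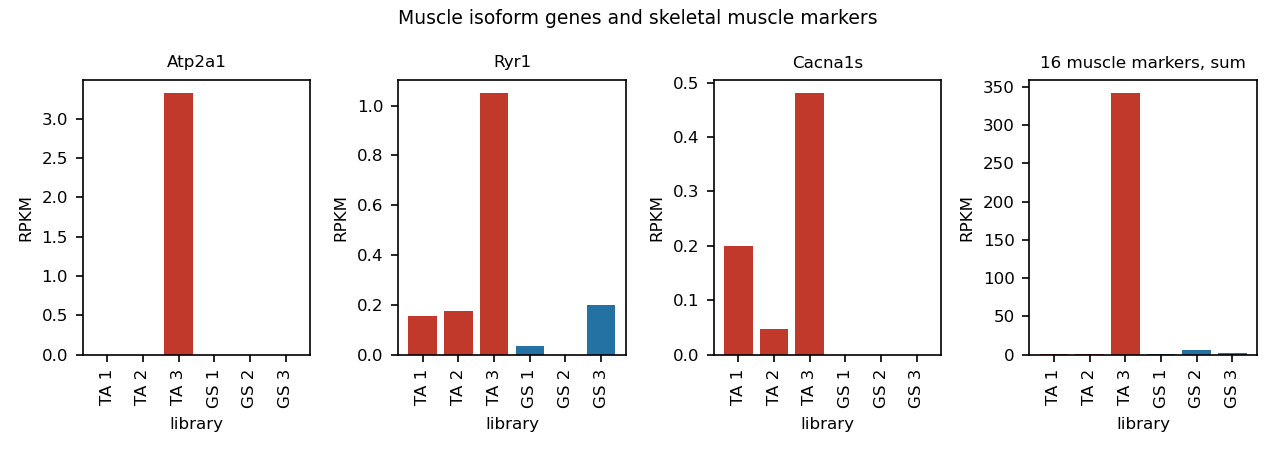
RPKM of Atp2a1, Ryr1 and Cacna1s and the summed RPKM of 16 skeletal muscle markers in each library (red bars, TA; blue bars, GS; each panel has its own axis from 0). TA replicate 3 is the highest bar in all 4 panels, at 3.33, 1.05, 0.481 and 342 RPKM.

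Plasma membrane pumps formed the most abundant class, at 97.9 to 104 RPKM in the TA pools and 71.9 to 109.8 RPKM in the GS pools. Atp2b2, a fast pump also known from hair cells and cerebellar neurons, was at 57.3, 45.7 and 45.9 RPKM in the TA pools and at 31.2, 65.5 and 47.7 RPKM in the GS pools. The TA pools lay inside the GS range, with a log2 difference of 0.10 (interval -0.66 to 0.85, limma adjusted p of 0.940) that turned to -0.11 with libraries centred on their medians. Atp2b1, the pump found in nearly all cells, averaged 23.1 ± 1.66 RPKM in the TA pools and 26.4 ± 6.19 RPKM in the GS pools (SD, n = 3), and the interval of its log2 difference was -0.88 to 0.56. Atp2b3, found mainly in neurons, averaged 23.7 ± 2.23 RPKM in the TA pools and 19.5 ± 3.0 RPKM in the GS pools, with an interval of -0.44 to 0.98. Atp2b2 led the class in all 6 libraries, with 43.5% to 59.7% of its summed RPKM.

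Atp2b4 was the least abundant plasma membrane pump. It was at 3.22, 4.48 and 3.26 RPKM in the TA pools and at 2.81, 0 and 2.73 RPKM in the GS pools. The muscles did not overlap, yet GS replicates 1 and 3 lay close under the TA pools and GS replicate 2 was listed at 0. The log2 difference was 0.93 (limma adjusted p of 0.619) and 0.29 without GS replicate 2. Atp2b4 is 1 of 7 members listed at 0 in GS replicate 2 alone, the others being Cacna1h, Cacna1i, Ryr1, Itpr1, Itpr3 and Slc8a2. Of the 20 members tested, 3 (15.0%) were at 0 in that library, against 5.87% of all genes tested.

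Sodium-calcium exchangers varied widely among the GS pools. Their sum was 21.3, 20.2 and 24.9 RPKM in the TA pools and 2.40, 0.805 and 22.8 RPKM in the GS pools. GS replicate 3 lay within the range of the TA pools, while the other 2 GS pools lay below all TA pools. GS replicates 1 and 2 also had the fewest genes with a read, 13950 and 12658 against 15432 to 16302 in the other libraries. They listed 2.94% and 5.87% of all genes tested at 0, against 0.545% to 1.15%. Members at 1 RPKM or more numbered 13 and 12 there, against 18 to 21. The part of this in the exchanger values was not tested. Slc8a1, the exchanger of heart and many neurons, was at 5.02, 6.19 and 5.25 RPKM in the TA pools and at 0.801, 0.116 and 1.76 RPKM in the GS pools. All TA pools lay above all GS pools, GS replicate 3 included. The means were 5.48 ± 0.621 and 0.891 ± 0.823 RPKM (SD, n = 3), a ratio of 6.16, with a log2 difference of 1.87 ± 0.48 (SE; 95% interval 0.81 to 2.92), a limma unadjusted p of 0.00258 and an adjusted p of 0.216. Slc8a1 (chromosome 17, 81785359 to 82048947, minus strand, mm9) rested on 1016 reads in TA and 139 in GS.

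Slc8a3, an exchanger of neurons and skeletal muscle, was at 12.8, 5.38 and 18.5 RPKM in the TA pools and at 0.910, 0.689 and 14.8 RPKM in the GS pools. GS replicate 3 exceeded 2 of the TA pools, and the other 2 GS pools lay under all others. The log2 difference was 1.69 (interval -0.08 to 3.46) with a limma adjusted p of 0.508, and 2.74 with an adjusted p of 0.105 without GS replicate 3. Slc8a2, an exchanger confined largely to neurons, was at 3.55, 8.67 and 1.20 RPKM in the TA pools and at 0.685, 0 and 6.24 RPKM in the GS pools. Here too GS replicates 1 and 2 were the lowest pools. They were so for all 3 exchangers and, among the other members tested, for Cacna1c, Cacna1i, Cacna2d3, Cacnb4 and Atp2b3. The part of the fewer genes with a read in these 2 pools was not tested for those members either. Among the markers of proprioceptors and large sensory neurons, GS replicates 1 and 2 were also the lowest for Pvalb, Runx3, Whrn and Isl1. Spp1 was instead highest in these 2 pools, at 59.0 and 72.0 RPKM, and the other markers of that list followed neither order. The part of these markers in the exchanger values was not tested. Slc8a3 was highest in TA replicate 3, the pool with muscle markers, while TA replicate 1 held 12.8 RPKM of it beside 1.18 RPKM of muscle markers, and TA replicate 2 held 5.38 RPKM beside 0.421 RPKM.

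**Figure D4:**
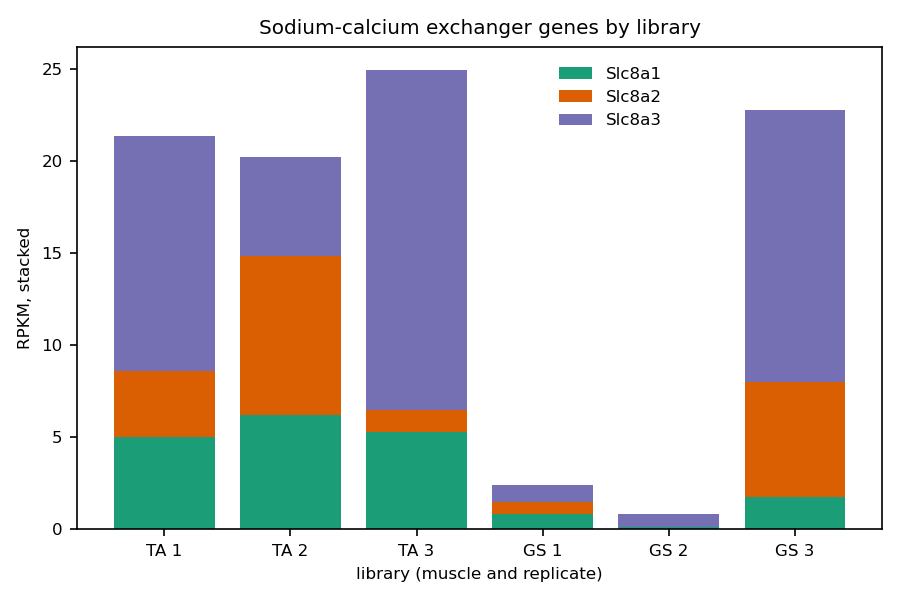
Stacked RPKM of Slc8a1, Slc8a2 and Slc8a3 in each library. The 3 TA pools and GS replicate 3 sum to between 20.2 and 24.9 RPKM, and GS replicates 1 and 2 sum to 2.40 and 0.805 RPKM.

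Other genes of calcium handling, 68 in the table and grouped by role, were examined with the same fit. Of the 43 that passed the filter, limma called 0 in either direction, and 7 had an unadjusted p under 0.05, all towards TA, where 8.30% of all genes did so. With libraries centred on their medians the count was 3 towards TA and 2 towards GS. The median log2 difference of these 43 was 0.36, against 0.24 over all genes. Hrc, a calcium-binding protein of the store lumen, had the smallest p. It was at 4.89, 4.19 and 9.07 RPKM in the TA pools and at 1.94, 0 and 0.123 RPKM in the GS pools, with a limma unadjusted p of 0.00231 and an adjusted p of 0.205. Its values did not overlap between the muscles. Hrc was highest in TA replicate 3, while TA replicates 1 and 2 held 4.89 and 4.19 RPKM beside 1.18 and 0.421 RPKM of skeletal muscle markers. The part of these markers in the Hrc values was not tested. Casq2, a store calcium buffer of heart and muscle, was at 2.94 RPKM in TA replicate 3, the pool with muscle markers, and listed at 0 elsewhere.

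Fkbp1b, which binds Ryr2 and helps keep it closed, had the highest mean among the store genes. It averaged 322 ± 139 RPKM in the TA pools and 389 ± 131 RPKM in the GS pools (SD, n = 3), with a limma adjusted p of 0.797. Mitochondria take up calcium across an outer membrane channel, and its gene Vdac1 averaged 287 ± 41.3 RPKM in the TA pools and 191 ± 50.7 RPKM in the GS pools, without overlap and with an adjusted p of 0.504. Letm1, a mitochondrial ion exchanger gene, was at 4.25 ± 1.5 and 1.56 ± 0.900 RPKM, with an adjusted p of 0.478.

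Stim2, a sensor of store calcium, had the highest mean over all 6 libraries among the genes of store-operated entry, though not within TA, at a mean of 5.09 ± 2.52 RPKM in the TA pools and 10.5 ± 4.32 RPKM in the GS pools (limma adjusted p of 0.538). Slc24a2, a potassium-dependent exchanger of neurons, was at 25.3, 20.8 and 30.4 RPKM in the TA pools and at 13.6, 16 and 13.2 RPKM in the GS pools. It did not overlap between the muscles, and its adjusted p was 0.448. In the Golgi and lysosome group, Tpcn1, a lysosomal channel, was at 3.24 ± 1.18 and 0.696 ± 0.393 RPKM (adjusted p of 0.395), and Atp2c1, the Golgi calcium pump, at 20.9 ± 4.31 and 10.4 ± 5.16 RPKM (adjusted p of 0.431). Unc80, a part of the sodium leak channel complex, averaged 15.1 ± 2.41 RPKM in the TA pools and 7.50 ± 0.205 RPKM in the GS pools (adjusted p of 0.420). Stac2, which slows inactivation of L type channels, was at 36.2 ± 19.5 and 21.2 ± 13.7 RPKM. Of the enzymes that make IP3, Plcb1 was at 7.84 ± 2.53 and 4.98 ± 3.35 RPKM and Plcb4 at 6.57 ± 2.02 and 7.32 ± 5.35 RPKM, with adjusted p of 0.666 and 0.995.

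Of the gene lists in the authors' deposited table, the one towards TA takes in 2.08% of gene entries with a read and 4 members, and the one towards GS takes in 1.76% and 0 members. In the authors' deposited table Cacna1c had a p of 0.00318 and an adjusted p of 0.243, and Cacna2d3 had a p of 0.00727 and an adjusted p of 0.394. Atp2a1 was in the authors' deposited table with a p of 0.000655 and an adjusted p of 0.0846, and Cacna1s with 0.0337 and 0.853. The deposited values rest on 1 summed signal per muscle. The Atp2a1 signal of 321.7 in the authors' deposited table thus stands for all TA pools, while all 382 TA reads of Atp2a1 came from TA replicate 3.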

How the data were processed

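Per the labels' protocols, RNA of each pool was extracted with PicoPure, amplified with the Ovation RNA-Seq kit and sequenced as Nextera libraries. Bowtie 0.12.9, DESeq and the mm9 build come from the submitters' processing notes. No source used here names the counting program, its annotation or its strand setting. The authors deposited whole reads and RPKM per gene and library, and 683 of 36814 entries hold a value below 0, and no source used here says why. Their 2 lists hold, per the file headers, a scaled read signal, p-values and RPKM per muscle. Ends of coordinates are the last base.

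The highest-mean entry per symbol was kept, entries with a value below 0 and genes with a mean under 1 RPKM were left out, and the muscles were set against each other on log2(RPKM + 1) by limma 3.58.1 (R 4.3.3), with group as the only term, with an empirical Bayes trend and Benjamini-Hochberg adjustment over all 10828 genes at 0.05. This scale understates differences of low genes. The steps were also run on simulated data with a normal spread, which did not copy the zeros of GS replicate 2. That run does not give the power for these members. Members, gene lists and rules were chosen with earlier results of these data known. Each of the 34 members is named. Values in every library are given for the highest and the smallest-p member of each class, members that did not overlap and members high in 1 library, and for each role of the other list the gene with the smallest p and the highest mean is named, mostly by means and SD. Marker lists of 7 cell types were summed per library: nociceptor markers came to 168 to 403 RPKM in TA and 247 to 438 in GS, glial markers to 187 to 223 and 118 to 233, low threshold mechanoreceptor markers to 10.3 to 26.3 and 5.34 to 13.2, and red blood cell and immune markers to 2.21 to 27.5 and 0.0229 to 5.11. Alternatives were another pseudocount, filter, scaling, treatment of values below 0, spread model, a replicate block and each library left out.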

Additional observations from a re-analysis of the deposited data

How the results depend on the processing

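No member and no gene of the other calcium handling list was called under any of the 15 other settings, including with GS replicate 2 and TA replicate 3 both left out, a setting chosen after seeing the data. The number of members at an unadjusted p under 0.05 was 3 and ranged from 1 (mean RPKM of at least 5, which left 10 members) to 6 (without GS replicate 3), and the smallest adjusted p of a member ranged from 0.0926 to 0.579. Over all genes, 19 were higher in TA and 14 in GS, against 7 and 6 with a pseudocount of 0.1, 0 and 0 with no filter, 9 and 8 with a mean of at least 5 RPKM, 11 and 17 with median centring, 8 and 8 with a replicate block, 1 and 0 with both libraries left out, and 1 to 19 and 1 to 10 without 1 replicate. The cause of these moves was not tested. The replicate numbers gave no sign of a pairing: same-numbered pools correlated at -0.0744, -0.0185 and -0.135 in their deviations from the muscle means. With 3 pools per muscle, such values cannot exclude a pairing. With the block, 4 members had an unadjusted p under 0.05.

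Of the 20 members tested, 11 kept their sign under every setting that gave a value (Cacna1c, Cacna1i, Cacna2d3, Cacnb4, Ryr2, Atp2a2, Atp2b3, Atp2b4, Slc8a1, Slc8a2 and Slc8a3). Leaving out TA replicate 1 or asking for a mean of at least 5 RPKM took Cacna1c out of the fit, and with a pseudocount of 0.1 the log2 differences were 3.44 for Cacna1c, 3.44 for Cacna2d3 and 2.97 for Slc8a1. The sign turned in the other 9 members, all with intervals that include 0, and in 3 of the 16 genes of the other list that were recomputed. With median centring the values were -0.18 for Cacna1a, -0.05 for Cacna1b, -0.07 for Cacnb3, -0.11 for Atp2b2 and -0.20 for Plcb4. With quantile normalization they were -0.18 for Cacna1a, -0.04 for Cacnb3 and -0.13 for Plcb4, and with a pseudocount of 0.1 the value was 0.12 for Cacna1d. With both libraries left out they were -0.48 for Cacna1b, 0.67 for Cacna1d, 0.10 for Cacna2d1, 0.05 for Cacnb1, -1.19 for Cacnb3 and 0.05 for Fkbp1b. Without 1 replicate the ranges were -0.16 to 0.18 for Cacna1a, -0.33 to 0.64 for Cacna1b, -0.66 to 0.04 for Cacna1d, -0.34 to 0.19 for Cacna2d1, -0.98 to 0.12 for Cacna2d2, -0.93 to 0.04 for Cacnb1, -0.54 to 0.71 for Cacnb3, -0.30 to 0.01 for Atp2b1, -0.18 to 0.35 for Atp2b2, -0.25 to 0.50 for Plcb4 and -0.58 to 0.19 for Rem2. The members under the filter rest on few reads, and no test of them was made beyond the fit with no filter.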

Other observations

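Among the regulators of voltage-gated calcium channels in the other calcium handling list, 3 inhibitors of 1 family were uneven among the GS pools. Rrad, a small GTPase that inhibits these channels, was at 13.8 RPKM in GS replicate 2 and at 0 to 0.582 RPKM in the other 5 libraries. Gem, of the same family, was at 4.67 RPKM in GS replicate 1 and at most 1.74 RPKM elsewhere, and Rem2 was at 4.04 RPKM in GS replicate 3 and at most 1.57 RPKM elsewhere. Each of the 3 GS pools thus held the highest value of a different member of this family. Limma called none of the 3 genes (adjusted p of 0.767, 0.854 and 0.954). Gem and Rem2 varied among the TA pools too, at 1.74, 0.217 and 0.130 RPKM and at 1.57, 0 and 0.700 RPKM. Rem1, also of this family, was listed at 0 in all libraries. The authors' deposited table lists Rrad as higher in GS, with a p of 0.0153 and an adjusted p of 0.591. Of the same calcium handling list, it also holds the store genes Hrc, Pln and Casq2, all as higher in TA. Rrad, Gem and Rem2 and the pair below were singled out after their values were seen.

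Stim1 and Stim2, the sensors of store calcium, lay in opposite order in the 2 muscles by their means, although in TA replicate 3 Stim2 (7.82 RPKM) was above Stim1 (5.17 RPKM), as in all GS pools. Stim1 averaged 5.99 ± 1.42 RPKM in the TA pools and 3.39 ± 2.61 RPKM in the GS pools, and Stim2 at 5.09 ± 2.52 and 10.5 ± 4.32 RPKM (SD, n = 3). The ratio was not tested, and limma called neither gene (adjusted p of 0.614 and 0.538).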
